A study of Mus musculus with 8 samples.

Results

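*Greb1*, *Nrip1*, *Irs4*, *Ncoa1*, *Ncoa2*, *Ncoa3* and *Ncor1* are 7 genes that either answer to estrogen in the hypothalamus or encode proteins that work beside the estrogen receptor. They were chosen by symbol, and all 7 passed the filter on low counts, among 35968 genes that the annotation matched and 15194 that could be tested. Their RNA was measured in tdTomato-labeled somatostatin (SST) neurons of the tuberal nucleus (TN), a feeding-related area of the lateral hypothalamus, from 4 female and 4 male mice with 1 library per mouse. All mice were heterozygous for Cre at the *Sst* locus (genotype Ssttm2.1(cre)Zjh/J / +) on a C57BL/6J background and had received AAV2-flex-tdTomato in the TN, so both sexes carried the same allele and the same virus. Females were described as cycling and males as gonadally intact, and all were adult at injection, while estrous stages were not given in the sources used here. Red fluorescence marks cells in which the *Sst* locus was active after injection, and the sorted cells were sequenced in bulk (Flow-Seq), where fewer cells of a type and less RNA per cell cannot be told apart. *Sst* itself averaged 420 ± 100 counts-per-million (CPM) over the females and 335 ± 38.2 CPM over the males (SD, 4 mice a sex).

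Estrogens act mainly through estrogen receptor alpha, the product of *Esr1*, a transcription factor that binds DNA at estrogen response elements. With hormone bound, the receptor recruits p160 coactivators, which bring histone acetyltransferases to the gene. *Ncoa1*, *Ncoa2* and *Ncoa3* encode this family. *Ncor1* encodes a corepressor that carries histone deacetylase complexes, and *Nrip1* encodes RIP140, which is recruited by hormone-bound receptors and yet represses transcription. *Nrip1* and *Greb1* are themselves classic estrogen-induced genes, and *Greb1* protein is also a receptor cofactor. *Irs4* encodes an insulin receptor substrate that is abundant in the hypothalamus and has been described there as sex-dependent.

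In CPM, *Greb1* and *Nrip1* were the coregulators with every male above every female. The RefSeq sequences just upstream of their start sites are therefore shown (mouse GRCm38.p6, 5′ to 3′ on the − strand). Capitals mark the estrogen response element half-site, GGTCA or its reverse complement TGACC.

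Greb1 distal start, chr12:16800887-16801136: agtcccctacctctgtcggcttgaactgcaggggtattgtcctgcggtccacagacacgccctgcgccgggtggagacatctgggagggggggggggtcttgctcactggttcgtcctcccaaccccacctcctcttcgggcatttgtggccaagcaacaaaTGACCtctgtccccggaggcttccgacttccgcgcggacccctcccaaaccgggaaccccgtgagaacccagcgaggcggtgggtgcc

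Greb1 internal start, chr12:16757242-16757489: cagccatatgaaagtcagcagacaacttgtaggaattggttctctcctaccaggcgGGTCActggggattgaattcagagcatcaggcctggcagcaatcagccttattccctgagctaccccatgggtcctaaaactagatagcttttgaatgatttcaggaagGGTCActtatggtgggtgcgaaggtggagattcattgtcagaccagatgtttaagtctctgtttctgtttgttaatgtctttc

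Nrip1 distal start, chr16:76373828-76374077: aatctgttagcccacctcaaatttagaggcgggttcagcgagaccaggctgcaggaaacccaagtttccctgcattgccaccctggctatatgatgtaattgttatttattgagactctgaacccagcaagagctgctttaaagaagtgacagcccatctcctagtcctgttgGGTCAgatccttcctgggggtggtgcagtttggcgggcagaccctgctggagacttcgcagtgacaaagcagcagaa

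Nrip1 proximal start, chr16:76373050-76373299: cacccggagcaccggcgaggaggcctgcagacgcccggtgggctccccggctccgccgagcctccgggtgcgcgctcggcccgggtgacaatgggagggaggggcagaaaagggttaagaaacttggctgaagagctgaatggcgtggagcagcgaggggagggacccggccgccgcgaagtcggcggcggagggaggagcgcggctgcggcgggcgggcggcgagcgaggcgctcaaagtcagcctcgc

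The distal *Greb1* window held 1 half-site and the internal one, which ends at the start of transcript *Greb1-201*, held 2. The distal *Nrip1* window held 1 half-site, and the proximal one held none but had 2 GC boxes (GGGCGG) and a GC content of 73.6%. The *Irs4* window also held 1 half-site, and those of *Ncoa1* and *Ncor1* held none. RefSeq windows were matched for 5 of the 7 genes (*Greb1*, *Nrip1*, *Irs4*, *Ncoa1* and *Ncor1*), 8 windows in all, and none held the full element GGTCANNNTGACC. On both strands the half-site occurred in 35.2% of 32851 windows of 250 bases, the GC box in 32.7% and the full element, which contains the half-site, in 0.0639%. These matches describe letters in short windows, and binding of the receptor was not measured.

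Kallisto's estimated counts, summed per gene, came to between 7.83 and 17.6 per mouse, in units of 1000000. They were scaled to CPM with edgeR's TMM method, and 3 counts, taken as the limit of detection, corresponded to 0.148 to 0.458 CPM. Such limits cover counting error only. All 7 genes lay far above this limit, with the lowest count being 71 for *Greb1* in females 1 and 2. Of the 15194 genes tested with edgeR's quasi-likelihood test, 24 had a Benjamini-Hochberg adjusted p under 0.05, which is 0.158% of the genes, and none of the 7 was among them. At an unadjusted p under 0.05 in that test, 4 of the 7 differed (*Greb1*, *Nrip1*, *Ncor1* and *Ncoa3*) against 20.5% of all genes. DESeq2's Wald test gave 1 of the 7, *Greb1*, against 6.92%. Every female lay above every male for 2 of the 7 genes, *Ncor1* and *Ncoa2*, as for 6.48% of all genes, and every male lay above every female for *Greb1* and *Nrip1*, as for 3.94% of all genes. The median log2 fold change, female over male, of the 7 genes was −0.19, and that of all genes tested was −0.0043.

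**Figure D1:**
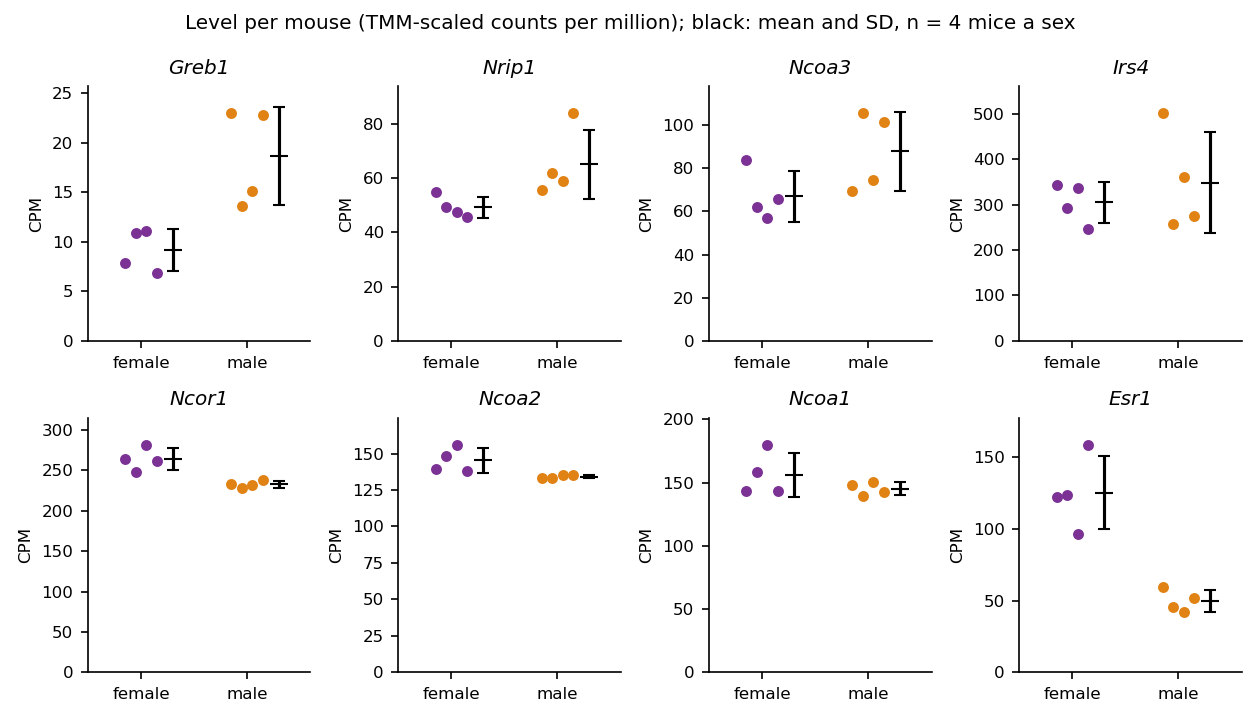
Level of each gene and of *Esr1* in each mouse, in TMM-scaled CPM on axes that start at 0 (points: mice, purple female and orange male; black: mean and SD, n = 4 a sex). *Greb1* lies between 6.84 and 11.05 CPM in females and between 13.66 and 22.96 CPM in males, the opposite order of *Esr1*.

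The receptor is described first. For *Esr1*, females 1 to 4 read 122, 124, 96.8 and 159 CPM, and males 1 to 4 read 59.4, 45.3, 42.0 and 51.8 CPM. The lowest female lay above the highest male, with a log2 fold change of 1.34 (SE 0.161, edgeR adjusted p = 0.0167). In 6 of 21 alternative fits the adjusted p was over 0.05, with log2 fold changes of 1.26 to 1.37 in those fits. *Esr2*, encoding estrogen receptor beta, lay between 0.27 and 1.78 CPM, and *Gper1*, encoding a membrane receptor, between 0.37 and 2.97 CPM, so both were near the limit of detection and their sexes overlapped. Their log2 fold changes of 0.82 and 1.04 had adjusted p-values of 0.389 and 0.315 in the same test. Of the list of 7 estrogen and related steroid receptors, 6 were tested, *Esr1* was called higher in females, and the other 5 did not pass.

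*Greb1* (growth regulation by estrogen in breast cancer 1, chromosome 12 of mm10, 16670615 to 16800886, − strand) was the lowest of the 7 and had the largest fold change. Females 1 to 4 read 7.88, 10.84, 11.05 and 6.84 CPM, and males 1 to 4 read 22.96, 13.66, 15.10 and 22.80 CPM. Every male lay above every female. Female 4, with the lowest *Greb1*, had the highest *Esr1* of the 8 mice, whereas male 1 was the highest male for both genes. Females averaged 9.15 ± 2.12 CPM and males 18.6 ± 4.94 CPM (SD over 4 mice of each sex), a level 2.03-fold higher in males. The log2 fold change of −1.02 had a standard error of 0.238 and a 95% interval of −1.56 to −0.49. It did not pass edgeR's quasi-likelihood test after Benjamini-Hochberg adjustment (adjusted p = 0.0912, unadjusted p = 0.00178). A 2-sided exact permutation test on log2 CPM gave p = 0.0286, the smallest that 4 mice against 4 allow. DESeq2's Wald test gave the same fold change with an adjusted p of 0.00468, so the call for *Greb1* rests on the tool. With each mouse left out in turn, its log2 fold change stayed between −1.15 and −0.90 and the adjusted p of the edgeR test between 0.0720 and 0.217.

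*Greb1* reads fell on different annotated transcripts in different mice. Transcript *Greb1-201*, which starts inside the gene at position 16757241, held 92.5%, 91.8%, 92.7% and 95.9% of the gene's reads in males 1 to 4. In the females, in the same order, it held 89.0%, 69.9%, 15.6% and 71.7%. Female 3 stood apart, with 59.5% of its *Greb1* counts on *Greb1-212*, which starts at 16800684 near the distal promoter window and held no counts in the other 7 mice. A transcript with a retained intron, *Greb1-210*, took 15.9%, 8.27% and 23.7% in females 2, 3 and 4 and none in female 1 or in any male. *Greb1-201* has no stretch of 31 bases that other *Greb1* transcripts lack, whereas *Greb1-212* has 110, so the split between them is an estimate from few informative reads. Protein-coding transcripts together carried 71.7% to 90.4% of *Greb1* counts in females and 92.5% to 98.1% in males. Per transcript length the sexes overlapped, since female 3 had 6.63 TPM and male 2 had 5.83 TPM, and with an offset for average transcript length the log2 fold change was −0.81 (adjusted p = 0.217, edgeR). On coding transcripts alone it was −1.24, with an adjusted p of 0.0850 in the edgeR test.

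**Figure D2:**
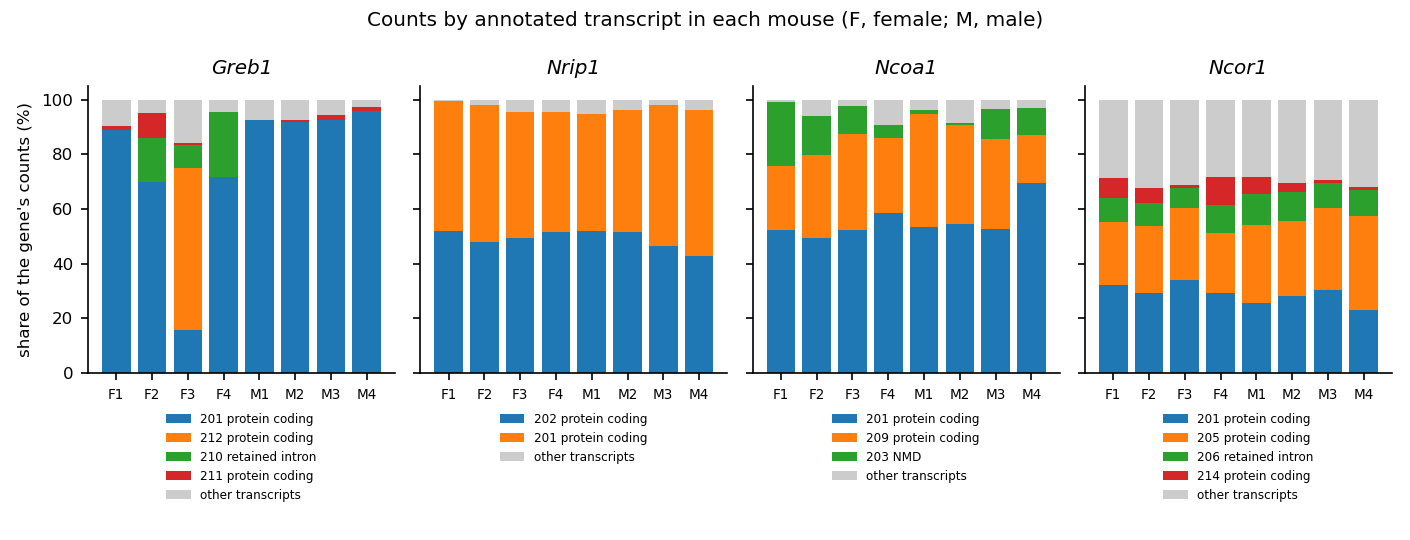
Share of the counts of *Greb1*, *Nrip1*, *Ncoa1* and *Ncor1* on each leading annotated transcript, in percent, for females 1 to 4 (F) and males 1 to 4 (M), with NMD for transcripts annotated to nonsense-mediated decay. Female 3 has 59.5% of *Greb1* counts on *Greb1-212*, where the other mice have none, while *Nrip1* is split nearly evenly over its leading pair in every mouse.

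*Nrip1* (chromosome 16, 76287400 to 76373827, − strand), the estrogen-induced corepressor, read 54.7, 49.3, 47.4 and 45.8 CPM in females and 55.6, 61.9, 58.9 and 83.9 CPM in males. The sexes did not overlap, but female 1 and male 1 were less than 1 CPM apart, and male 4 was well above the other males. The log2 fold change was −0.40 (SE 0.136, 95% interval −0.70 to −0.09, exact permutation p = 0.0286), and its adjusted p in edgeR's quasi-likelihood test was 0.171. Without male 4 the log2 fold change was −0.25. Its counts were divided over transcript *Nrip1-202*, which begins at the distal start with 42.8% to 52.1%, and *Nrip1-201*, which begins at the proximal start with 42.7% to 53.5%. Both are protein-coding, and neither sex favored one of them in every mouse. *Nrip1-201* has no stretch of 31 bases that other *Nrip1* transcripts lack, whereas *Nrip1-202* has 3491.

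Among the coactivators, *Ncoa3* (SRC-3, chromosome 2, 165992636 to 166073242, + strand) read 83.8, 62.2, 56.7 and 65.5 CPM in females and 69.5, 105, 74.7 and 101 CPM in males. Female 1 lay within the male range, and the log2 fold change of −0.39 (SE 0.168, 95% interval −0.76 to −0.01) had an adjusted p of 0.235 in the edgeR test and an exact permutation p of 0.143. *Ncoa2* (SRC-2, chromosome 1, 13139105 to 13374083, − strand) read 139, 149, 156 and 138 CPM in females and 133, 133, 135 and 135 CPM in males. Every female lay above every male in CPM, by a small margin, since the males had an SD of only 1.09 CPM. *Ncoa2* overlapped between the sexes per transcript length, since female 2 had 54.2 TPM and male 2 had 83.3 TPM. Its log2 fold change was 0.12 (SE 0.0651, 95% interval −0.03 to 0.26), with an adjusted p of 0.335 in the edgeR test and an exact permutation p of 0.0286. *Ncoa1* (SRC-1, chromosome 12, 4247362 to 4477182, − strand) read 143, 158, 180 and 143 CPM in females and 148, 139, 150 and 142 CPM in males. The sexes overlapped, and the log2 fold change of 0.11 (SE 0.0861, 95% interval −0.09 to 0.30) had an adjusted p of 0.504 in the edgeR test. Without female 3 it was 0.028 for *Ncoa1* and 0.077 for *Ncoa2*. The p160 genes thus gave no common direction, and none of their differences passed the test.

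The transcript makeup of *Ncoa1* differed between mice more than its total. *Ncoa1-203*, annotated to nonsense-mediated decay, took 23.3%, 14.3%, 10.2% and 4.83% of the gene's reads in females 1 to 4. In the males, in the same order, it took 1.50%, 0.61%, 10.9% and 9.97%, so the sexes overlapped. On coding transcripts alone the *Ncoa1* log2 fold change was −0.01, and with an offset for average transcript length it was 0.31, neither past the edgeR threshold. The leading coding transcript, *Ncoa1-201*, held between 49.4% and 69.5%.

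*Ncor1* (chromosome 11, 62316426 to 62458541, − strand), the corepressor, read 264, 248, 282 and 261 CPM in females and 233, 228, 232 and 238 CPM in males. Every female lay above every male, and the males were within 10 CPM of each other. The log2 fold change was 0.18 (SE 0.0628, 95% interval 0.04 to 0.32, exact permutation p = 0.0286), and its adjusted p in edgeR's quasi-likelihood test was 0.174. Of 25 annotated *Ncor1* transcripts, *Ncor1-201* held 31.3% ± 2.34 of the reads in the female libraries and 26.8% ± 3.16 in the male ones. The shorter *Ncor1-205* held 23.8% ± 1.86 and 30.0% ± 2.98 (SD over 4 mice of each sex). Only 9 stretches of 31 bases in *Ncor1-201* and 27 in *Ncor1-205* are absent from the other *Ncor1* transcripts. Their split is thus an estimate from few informative reads.

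*Irs4* (X chromosome, 141710998 to 141725263, − strand), the insulin receptor substrate, read 344, 293, 336 and 246 CPM in females and 501, 257, 360 and 275 CPM in males. The sexes overlapped throughout, and male 1 stood above the rest. The log2 fold change of −0.19 (SE 0.205, 95% interval −0.65 to 0.27) had an adjusted p of 0.622 in the edgeR test and an exact permutation p of 0.571, and it was 0.04 without male 1, −0.32 without male 2 and −0.10 without female 4. A single annotated transcript carried all *Irs4* counts.

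Genes on the opposite strand overlap exons of 5 of the 7 genes. *Gm48140* shares 736 bases (7.68%) with *Greb1* exons, *Gm15295* shares 383 bases (6.09%) with *Irs4*, and *Sulf2* shares 154 bases (1.95%) with *Ncoa3*. Overlaps of *Ncoa1* and *Ncor1* were of at most 82 bases. The library kit keeps strand, but the strand setting of the counting was not given in the sources used here, so reads from the overlaps cannot be assigned with certainty.

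Levels of different genes were compared per transcript length, in transcripts-per-million values (TPM), as means over all 8 mice. *Ncor1* had the highest value at 167 ± 26.4 TPM, followed by *Irs4* at 90.8 ± 24.1, *Ncoa2* at 69.2 ± 13.0 and *Ncoa1* at 59.0 ± 14.0. Next came *Ncoa3* at 35.0 ± 9.45, *Nrip1* at 21.8 ± 6.30 and *Greb1* at 6.53 ± 2.45 TPM (SD, n = 8). The corepressor thus stood 25.5-fold above *Greb1* in TPM. In CPM the first pair was reversed, with means of 327 for *Irs4* and 248 for *Ncor1* over the 8 mice. *Irs4* has 1 annotated transcript of 6294 bases, whereas *Ncor1* TPM sums 25, among them fragments such as *Ncor1-216* of 716 bases. Only 27 stretches of 31 bases in that fragment are absent from the other *Ncor1* transcripts. The place of *Ncor1* above *Irs4* thus depends on an estimated split over transcripts. In TPM *Ncor1* lay above *Irs4*, *Ncoa3* above *Nrip1* and *Nrip1* above *Greb1* in 8 of 8 mice. *Irs4* lay above *Ncoa2*, and *Ncoa1* above *Ncoa3*, in 7 of 8. *Ncoa2* lay above *Ncoa1* in 5 of 8, so this pair of neighbours did not separate beyond the spread between mice. *Esr1* averaged 58.6 ± 9.94 TPM over the females and 22.1 ± 4.99 TPM over the males (SD, 4 mice a sex) and lay close to *Ncoa1* in females and close to *Nrip1* in males.

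**Figure D3:**
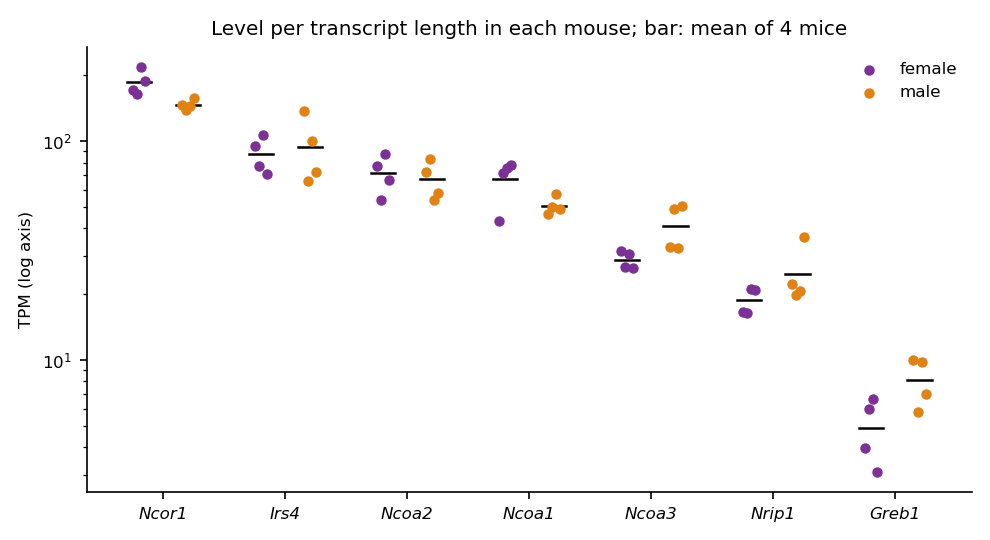
Level per transcript length of each gene in each mouse, in TPM on a log axis (points: mice by sex; bars: mean of 4 mice a sex), ordered by the mean over 8 mice. The order runs from *Ncor1* at 167 TPM to *Greb1* at 6.53 TPM, and *Ncoa2* and *Ncoa1* overlap.

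The partners of these genes were described from lists of known coregulators and pathway genes. Over all genes tested, 20.5% had an unadjusted p under 0.05 in edgeR's test and 49.4% had a positive log2 fold change, and the counts in each list are to be read against these shares. Of 21 further coactivators all were tested and none passed in either direction with edgeR, while 4 had an unadjusted p under 0.05, near the share of all genes, and 13 had a positive log2 fold change, with a median of 0.09. The smallest p-values belonged to *Trrap*, a scaffold of acetyltransferase complexes, with a log2 fold change of 0.29, *Kmt2d*, a histone H3 methyltransferase, with 0.19, and *Smarca4*, the ATPase of a chromatin remodeler, with 0.19 (adjusted p = 0.174 to 0.179, edgeR). The other of the 4 was *Ccnd1*, cyclin D1, named after its values were seen, with the opposite sign and a larger log2 fold change of −1.04 (SE 0.370, adjusted p = 0.181, edgeR). Of 18 further corepressors none passed, 1 had an unadjusted p under 0.05 and 12 were positive, with a median of 0.05. *Hdac1* and *Gps2*, both parts of deacetylase complexes, had log2 fold changes of −0.35 and −0.27 (adjusted p = 0.364 and 0.399, edgeR). The medians of both lists lay within 0.1 of that of all genes tested.

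Chaperones keep steroid receptors in a form that can bind hormone. Of 9 tested, none passed in either direction, 3 had an unadjusted p under 0.05 in the edgeR test (20.5% of all genes), and 1 had a positive log2 fold change (49.4% of all genes), with a median of −0.12. *Fkbp4* and *Fkbp5*, immunophilins of the receptor complex, had log2 fold changes of −0.34 and −0.32, and the chaperone *Hspa8*, whose many near-identical pseudogenes can share reads, had −0.19 (adjusted p = 0.158, 0.220 and 0.222, edgeR).

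Of 21 estrogen-induced genes, 1 was called higher in females and 2 higher in males by edgeR, 9 had an unadjusted p under 0.05 (20.5% of all genes), and 8 were positive (49.4% of all genes). *Oxtr*, the oxytocin receptor, read 26.5, 20.8, 21.4 and 39.1 CPM in females and 6.03, 6.05, 6.17 and 6.55 CPM in males, a log2 fold change of 2.12 (adjusted p = 0.00655, edgeR). *Tiparp*, a mono-ADP-ribosyltransferase, had a log2 fold change of −1.02 and *Gal*, the neuropeptide galanin, had −1.19 (adjusted p = 0.00825 and 0.0448, edgeR). *Gal* lost the threshold in 13 of 21 alternative fits, *Tiparp* in 3 and *Oxtr* in 1, with log2 fold changes of −1.31 to −1.11, −1.01 to −0.83 and 2.07 in those fits. The sexes did not overlap for any of these genes, and *Oxtr*, *Tiparp* and *Gal* were known to differ when the list was drawn up, so the list is not independent evidence. *Tiparp* and *Gal* were lower in the sex with more *Esr1*, and *Oxtr* was higher.

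The list of the insulin receptor substrate pathway, to which *Irs4* belongs, had 13 of 14 genes tested. None passed in either direction, 2 had an unadjusted p under 0.05 in the edgeR test, and 5 were positive, with a median of −0.07. *Akt2*, a kinase downstream of the substrates, had a log2 fold change of −0.44, and *Pik3r1*, a regulatory subunit of phosphoinositide 3-kinase, had −0.37 (adjusted p = 0.168 and 0.333, edgeR).

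**Figure D4:**
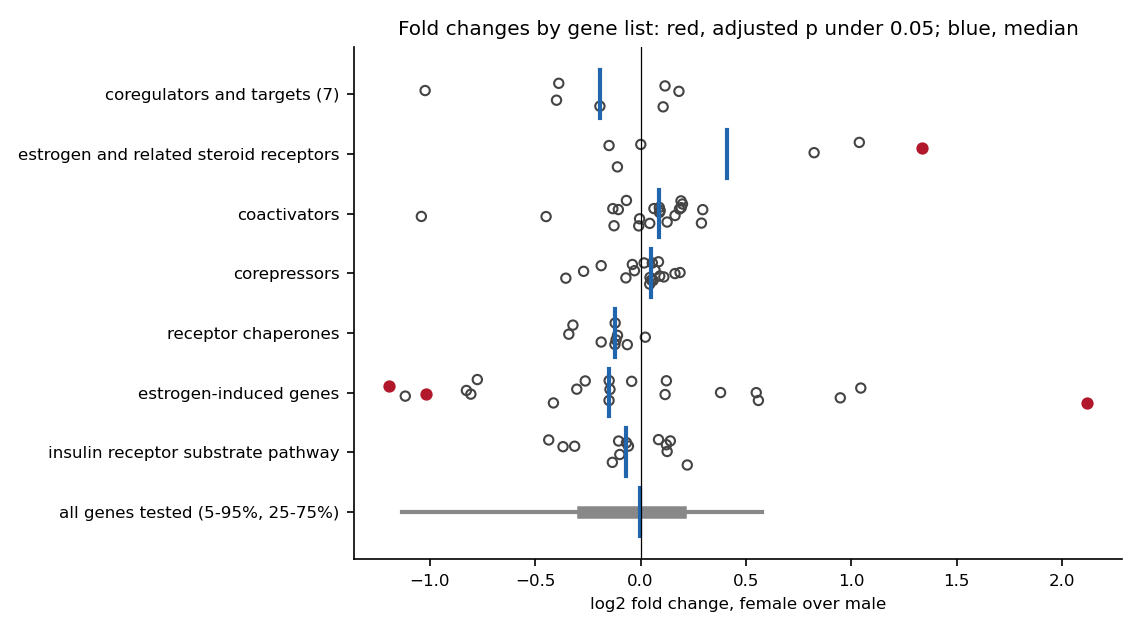
Log2 fold change, female over male, of each gene by list (circles: genes; red: adjusted p under 0.05 in edgeR; blue: list median; grey: the central 50% and 90% of all 15194 genes tested). The red points are *Esr1* and *Oxtr* above 0 and *Tiparp* and *Gal* below 0, and none lies among the 7 coregulators and targets.

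Sums of marker genes of other cell types were set beside the sexes, without a test of the sums. Summed CPM of 5 microglia genes ran from 161 to 893 in females and from 364 to 1761 in males, with 5 of 5 genes lower in females by point estimate. Those of 5 oligodendrocyte genes ran from 462 to 2047 and from 831 to 1825, and those of 5 astrocyte genes from 74.7 to 326 and from 245 to 450, again with all genes lower in females by point estimate. These ranges overlapped between the sexes. The sums of 4 endothelial genes, from 23.0 to 73.3 and from 29.7 to 83.8, overlapped too. Those of 8 neuron genes ran from 2145 to 2627 in females and from 1628 to 2106 in males. By point estimate 8 of 8 were higher in females. Sums of 7 ventromedial nucleus genes ran from 581 to 697 and from 402 to 516, with 6 of 7 genes higher in females by point estimate. Neither the neuron nor the ventromedial sums overlapped between the sexes. The exception among the 7 was *Nr5a1*, with a log2 fold change of −0.44 and a low mean level of 3.72 CPM. *Fezf1* had the largest, 1.92 (adjusted p = 0.170, edgeR), at 30.7 ± 14.0 CPM over the females and 8.31 ± 9.74 CPM over the males (SD). *Dlk1* made up most of the ventromedial sum, at an average of 431 out of 650 CPM for females and 351 out of 477 CPM for males. No marker was at 0 in any mouse, and no gene of these lists passed edgeR's threshold. The part of other cells in the results was not tested beyond the fits that follow.

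The 7 genes took different values once a marker level was in the model. With the microglia mean as covariate the log2 fold change of *Ncoa3* went from −0.39 to −0.06 (SE 0.121) and that of *Nrip1* from −0.40 to −0.22 (SE 0.145). With the neuron mean they were 0.09 (SE 0.153) and −0.10 (SE 0.163). The neuron sums did not overlap between the sexes, so neuron level and sex cannot be fully told apart in that fit. *Greb1* stayed as large, at −1.29 (SE 0.262) with the microglia mean and −1.32 (SE 0.326) with the neuron mean, and *Ncor1* stayed at 0.16 with either. *Irs4* went the other way, from −0.19 to −0.43 (SE 0.183) and −0.71 (SE 0.170). None of the 7 passed the adjusted threshold in these edgeR fits.

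**Figure D5:**
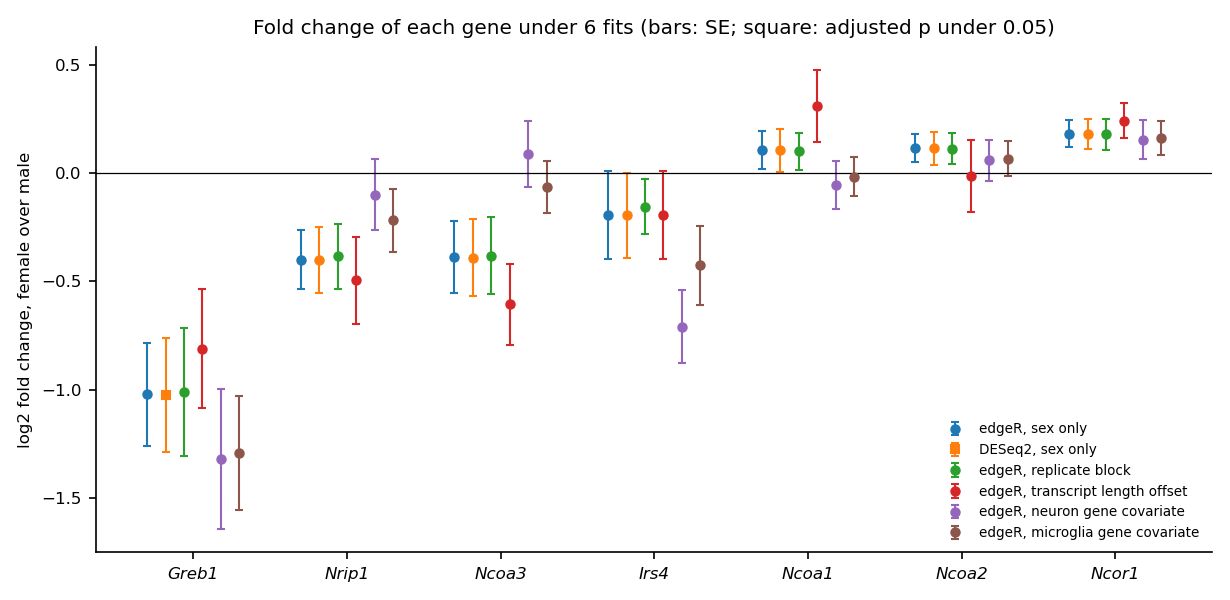
Log2 fold change, female over male, of each gene under 6 fits (points; bars: standard error; square: adjusted p under 0.05). *Greb1* lies between −0.81 and −1.32 in every fit shown, and *Ncoa3* lies at −0.39 with sex alone and at 0.09 with the neuron covariate.

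For each of the 7 genes, the 2 tested genes with the most similar level over the 8 mice were found by Pearson's r of log2 CPM. They were *Fam208b* and *Stard4* for *Greb1* (r = 0.980 and 0.965), *Naf1* and *Siglec1* for *Nrip1* (0.975 and 0.972), and *Gpc4* and *Spata24* for *Irs4* (0.962 and 0.953). For *Ncoa1* they were *Nptn* and *Pde2a* (0.976 and 0.972), for *Ncoa2* *Elk1* and *Atrip* (0.967 and 0.961), for *Ncoa3* *Ly6e* and *Spint1* (0.995 and 0.992), and for *Ncor1* *Sbno1* and *Shroom2* (0.986 and 0.982). Each pair is the top of the ranking over all tested genes, from 8 points that share library, depth and cell makeup, and is given as a description only.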

How the data were processed

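RNA of sorted TN SST neurons from 4 female and 4 male mice was sequenced by the authors as stranded single-end libraries, 1 per mouse. The authors assigned reads to mm10 transcripts with kallisto 0.46.2 and deposited estimated counts, which are not normalized, with TPM values and effective lengths. Each mouse had 2 blocks of the same transcripts, and what the blocks stand for is not given in the sources used here. Counts of both blocks were summed and TPM averaged, although 1 TPM value per transcript had been planned for. The submitters' processing notes also list DESeq2 2.11.40.6.

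Transcripts were joined to genes with GENCODE M21 (1761 unmatched, 0.429% to 0.611% of counts), and gene counts were rounded. Females and males were compared with edgeR 4.0.16 in R 4.3.3, alongside limma 3.58.1 (TMM, default filter by sex, quasi-likelihood test, sex as the only term, Benjamini-Hochberg adjusted p under 0.05), and DESeq2 1.42.0 was an alternative. Standard errors came from the F statistic. Log2 CPM used a prior count of 2. The tests were tried on simulated data. Python 3.11.15 (scipy 1.17.1, pandas 2.3.3, numpy 2.4.6) served for joins, motif counts, exact 2-sided permutation tests and plots. Labels gave a sex and a number, and the authors stated read depth per mouse, so each library was taken as 1 mouse.

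The 7 genes and all lists were chosen with earlier results of these data known. Named are the 7 genes, *Esr1*, *Esr2* and *Gper1*, each list gene past the threshold, the 3 with the smallest p per list, and for each of the 7 the 2 genes most correlated with it. Some results that this rule names are not reported here. *Sst* and the overlapping genes were named as checks. Alternatives were other normalizations, other filters, a replicate block, marker covariates and no *Lars2* (an abundant gene). Others were each block alone, coding transcripts alone, a length offset, and leaving out each mouse. *Lars2* read from 104809 TPM in female 3 to 224740 TPM in female 2, and TPM of all genes share a fixed total. Levels of other genes in TPM therefore depend on it. Without it edgeR called 22 genes, against 24 with it.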

Additional observations from a re-analysis of the deposited data

How the results depend on the processing

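The number of genes past the adjusted threshold depended on the processing. It was 24 with edgeR and sex alone, 1052 with DESeq2, 8 with the neuron covariate, 13 with the microglia covariate and 14 with the length offset, and it ranged from 8 to 415 when a mouse was left out, with 415 without female 1 and 411 without male 1. A fit blocked on replicate number called 1 gene. The labels do not say whether the numbers pair the mice. Correlations of same-numbered mice lay between −0.396 and 0.0719, and 1 of 4 correlated best with its own number. Correlations across numbers reached 0.416, and 4 same-number values are too few to show whether a batch was shared. Under the block *Greb1* had a log2 fold change of −1.01 and an adjusted p of 0.232 (edgeR). Of the fold changes of the 7 genes under the alternatives, 140 kept their direction and side of the threshold. *Greb1* passed with DESeq2 (−1.02, adjusted p = 0.00468), and 6 values changed sign, all of them below the threshold on both sides. These were *Irs4* without male 1 (0.036, in a range of −0.32 to 0.036 over the mice left out), *Ncoa1* with the neuron covariate (−0.052), the microglia covariate (−0.016) and coding transcripts alone (−0.011), *Ncoa2* with the length offset (−0.011) and *Ncoa3* with the neuron covariate (0.088). With the neuron covariate *Hdac1* (0.20), *Gps2* (0.040) and *Pik3r1* (0.26) changed sign, as did *Hdac1* (0.029) and *Pik3r1* (0.068) with the microglia covariate. The cause was not tested. The other named genes lost the threshold in 23 fits. *Esr1* did so under the block (adjusted p = 0.0683), with the neuron covariate (0.219) and without female 2, male 2, male 3 or male 4 (0.0610 to 0.0839), with log2 fold changes of 1.26 to 1.37 against 1.34, *Oxtr* under the block (0.0683, log2 fold change 2.07), and *Tiparp* under the block (0.115), with the neuron covariate (0.205) and without female 4 (0.0513). *Gal* lost it in 13 fits, all edgeR. DESeq2 gave no adjusted p for *Esr2* and *Gper1*. The order of levels and the leading transcript of each gene were the same whichever mouse was left out. Depth limits *Esr2* and *Gper1* most, whose counts were 3 to 33 per mouse.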
